A study of Mus musculus with 8 samples.

Results

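The PP cells described here are the islet cells in which Ppy, the gene for pancreatic polypeptide, supplied at least 5% of a cell's unique molecular identifiers (UMIs, which count captured RNA molecules), while Gcg and Sst each supplied less than 5% and Ins1 and Ins2 together less than 20%. They were chosen by these measured hormone shares, and 125 of 1232 kept cells met the rule. The samples were islets of 8-week-old male C57BL/6J mice, wild type with no transgene named, in 4 control samples from unoperated mice and 4 samples taken 2 days after removal of about 50% of the pancreas (partial pancreatectomy, PPTx), each pooled from 1 to 3 mice. Of the PP cells, 30 of 520 cells came from control and 95 of 712 from PPTx samples. The surgery removed the splenic side and the controls had no sham operation, so surgery and the region of pancreas that the islets came from cannot be told apart in any comparison of PPTx with control. The separate mice behind each sample were not labelled, and p-values over samples measure the spread between these pools.

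PP cells, also called gamma cells, are among the rarer endocrine cells of the islet. They release pancreatic polypeptide after meals, under vagal control, and the hormone slows gastric emptying and exocrine secretion through the Y4 receptor. In rodents they gather in islets of the part of the pancreatic head that derives from the ventral bud. Alpha cells, the source of glucagon, prevail in the tail and body. Ppy and its sister gene Pyy, for peptide YY, lie side by side and belong to the neuropeptide Y family.

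The sources of the PP hormone signal in the genome are shown by the promoters of Ppy and Pyy, together with that of Iapp, the gene for amylin, which turned out to be the gene whose level in PP cells differed after PPTx. By RefSeq on GRCm38.p6, the build also called mm10, Ppy lies on chromosome 11 from 102099931 to 102101319 and Pyy on the same chromosome from 102106676 to 102107832, with 5356 bases between them, while Iapp lies on chromosome 6 from 142298425 to 142303820. The runs below go from 250 bases before to 30 bases after each start and read 5′ to 3′ along the gene, at chr11:102101290-102101569 on the minus strand for Ppy, chr11:102107803-102108082 on the minus strand for Pyy and chr6:142298175-142298454 on the plus strand for Iapp. Capitals mark the letters TATAA on the gene's strand and TAATG on either strand.
Ppy: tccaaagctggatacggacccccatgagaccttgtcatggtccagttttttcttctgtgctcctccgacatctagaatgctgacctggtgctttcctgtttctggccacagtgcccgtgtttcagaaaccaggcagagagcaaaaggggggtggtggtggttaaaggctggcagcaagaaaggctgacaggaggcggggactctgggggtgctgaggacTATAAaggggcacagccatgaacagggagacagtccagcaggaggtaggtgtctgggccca
Pyy: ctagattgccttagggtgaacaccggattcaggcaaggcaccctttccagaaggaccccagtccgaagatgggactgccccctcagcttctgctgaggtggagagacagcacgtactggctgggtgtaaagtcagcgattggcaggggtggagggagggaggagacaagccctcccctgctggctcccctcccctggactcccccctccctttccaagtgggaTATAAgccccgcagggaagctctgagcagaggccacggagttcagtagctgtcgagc
Iapp: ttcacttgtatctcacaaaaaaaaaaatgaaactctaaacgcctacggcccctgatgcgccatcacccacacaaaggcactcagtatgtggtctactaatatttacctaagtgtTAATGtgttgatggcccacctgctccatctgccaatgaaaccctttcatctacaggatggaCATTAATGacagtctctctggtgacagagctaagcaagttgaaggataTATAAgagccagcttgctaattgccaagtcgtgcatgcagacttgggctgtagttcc
Each of the 3 promoters holds a single TATAA, starting 31 bases before the start in Ppy and 27 bases before it in Pyy and Iapp. These letters occur on either strand in 24.7% of 27025 promoters of the same length. TAATG was found 3 times in the Iapp promoter and in neither of the other promoters, and it occurs in 25.9% of all promoters. TGACAG, also sought on both strands, was found once in Ppy and 2 times in Iapp and occurs in 17.9% of promoters. CAGATG was found once in Iapp (16.2% of promoters), and TAATTA (5.14%) and CAGCTG (14.7%) were found in none of the 3. These matches are descriptions of letters only.

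Totals ranged from 236645 to 1580152 UMIs per sample, and the PP cells of a sample held 6500 to 220741 UMIs. Control replicate 1 had 2 PP cells and was left out of every comparison that needed 5 cells per sample. Every kept cell had at least 2005 UMIs. PP cells had a median of 5221 UMIs and 1397 genes. Their UMIs per cell were 0.812 times those of beta cells, lower in 6 of 7 samples (exact sign-flip test of log10 medians, two-sided, p = 0.0938), and UMIs outside the 5 hormone genes stood at 1.04 times. Against alpha cells the factor was 1.83 in 3 samples, where the exact test cannot go below 0.25. A single barcode occurred in more than 1 sample, carried by 1 PP cell among others, and doublets were not sought beyond the hormone limits, which had placed 62 cells with a pair of hormones outside all classes.

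Cells just inside and just outside each limit are given here for cells that met the other limits of the rule. For Ppy the nearest values were 5.38% inside and 2.17% outside, and for the insulin genes 8.46% inside and 23.5% outside. Beta cells, which fail the insulin limit, reached 4.62% Ppy. For Gcg the nearest values were 4.91% inside and 5.26% outside, and 5 PP cells had more than 4% Gcg. In all, 181 cells had at least 5% Ppy, of which 31 also reached the Gcg limit, 11 the Sst limit and 14 the insulin limit. These cells with a second hormone were not counted as PP cells.

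Within PP cells, Ppy supplied a median of 49.1% of UMIs, from 5.38% to 73.0%, and 88 of the 125 cells lay between 40% and 60%. Pyy, which the rule did not use, supplied a median of 9.75%, from 0.426% to 29.8%. The insulin genes supplied a median of 0.924%, Gcg 0.0185% and Sst 0.00744%. In beta cells the share of Ppy was 0.0148% to 0.0436% in control and 0.0555% to 0.191% in PPTx samples, without overlap. Pooled over samples, Ppy supplied 0.0712% of UMIs in beta cells, 0.438% in alpha cells, 0.391% in cells with no hormone above its limit and 1.30% in the 8 delta cells. Across PP cells the shares of Ppy and Pyy had a Pearson r of -0.0947, and of 0.446 when each was taken over the UMIs without the other gene (125 cells, a description over cells that share libraries). Taken in the latter way within samples, r ran from -0.0428 in PPTx replicate 1 and 0.0701 in PPTx replicate 4 to 0.616 in control replicate 2.

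**Figure D1:**
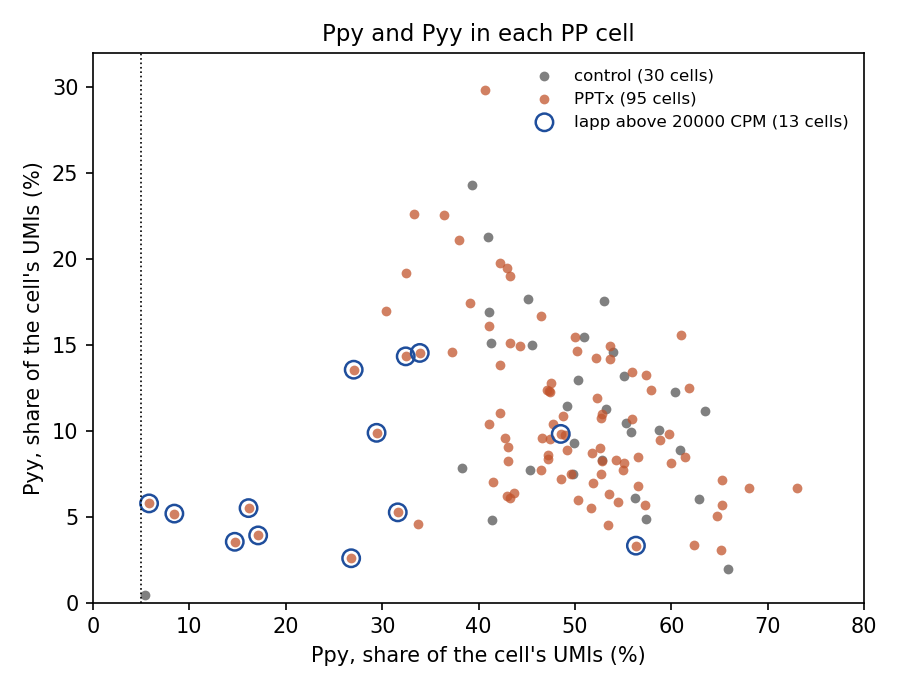
Share of a cell's UMIs from Ppy (horizontal axis, %) and Pyy (vertical axis, %) in each of the 125 PP cells, in grey for 30 control and orange for 95 PPTx cells. The dotted line is the Ppy limit of 5%, and blue rings mark the 13 cells with Iapp above 20000 CPM (defined below), 11 of which have less than 35% Ppy.

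The name PP cells was set beside Pyy, Tspan8, Vsig1, Fxyd3 and Aqp3, the markers given for it beside Ppy, and 3 of the 5 were clearly present. The lists were chosen with earlier results of these data known, so this is a description and not an independent check. Levels here and below are CPM, a gene's UMIs scaled to a total of 1000000 UMIs outside Ins1, Ins2, Gcg, Sst and Ppy. The hormones that chose the cells thus do not dilute the other genes. Pyy stays in this total and lowers the CPM of other genes in PP cells, as Iapp does in beta cells. CPM therefore compare cell classes only roughly and do not rank genes by molecule number. The log2 fold changes below used a further scaling between sums (TMM) and can differ from the ratio of the CPM. Pyy supplied 11.3% of the pooled UMIs of PP cells, 4.54% of those of the 8 delta cells and 1.54% of those of alpha cells. It stood at 227679 CPM in PP cells, 28512 CPM in alpha cells and 1214 CPM in beta cells, pooled over samples. Tspan8, a tetraspanin of epithelial membranes, stood at 1351, 26.7 and 58.4 CPM in the same order, and it had a UMI in 73.6% of PP cells, 4.12% of beta cells and 1.02% of alpha cells after every cell was thinned to 2000 UMIs. Fxyd3, a regulator of the sodium pump, stood at 240.2, 26.7 and 81.8 CPM. Pooled levels here and below set mostly PPTx PP cells (95 cells) beside mostly control alpha cells (87 cells), so class and group are mixed in them. Vsig1, a junctional protein, had 6 UMIs in PP cells, 1 in beta cells and 0 in alpha cells. Aqp3, an aquaglyceroporin, had 0 UMIs in PP cells, beta cells, alpha cells and delta cells. The data therefore show Pyy, Tspan8 and Fxyd3 in PP cells. Aqp3 was not borne out, with no UMI among the 353854 UMIs of PP cells outside the hormone genes of the rule. A low level of Aqp3 could not be seen at this depth. The few UMIs of Vsig1 lay mostly in PP cells among these 3 classes, but they were too few for it to be tested.

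Markers of other cell types were found in PP cells to different degrees. Of 6 endothelial markers 1 had a UMI in PP cells, and of 8 immune markers 3 had one, with Ptprc at 0. All 8 acinar markers had a UMI, and they summed to 0 to 54.0 CPM in control and 79.5 to 357 CPM in PPTx PP cells, against 68.9 CPM in beta cells, and their part in the PPTx results was not tested. Of 7 ductal markers 5 had a UMI, with sums of 108 to 992 CPM in control and 446 to 950 CPM in PPTx PP cells, against 477 CPM in beta cells, and Sox9 and Cftr were at 0. Of 6 stellate markers 2 had a UMI, with 32.7 to 378 CPM in control and 0 to 89.2 CPM in PPTx PP cells, against 14.0 CPM in beta cells. Of 7 delta markers outside Sst 4 had a UMI, with 327 to 586 CPM in control and 159 to 535 CPM in PPTx PP cells, against 70.9 CPM in beta cells. All 9 alpha markers outside Gcg had a UMI, with 6629 to 8006 CPM in control and 4592 to 7266 CPM in PPTx PP cells, against 4467 CPM in beta cells. Mafa and Npy, of 10 beta markers outside the insulin genes, were at 0 in PP cells. Beta markers summed to 1339 to 1759 CPM in control PP cells and to 3489 to 19995 CPM in PPTx PP cells, nearly all of it Iapp, as described below, and to 128163 CPM in beta cells.

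The next comparison asked which genes, beside the hormones, set PP cells apart from beta cells. It used 7 samples with at least 5 cells of each class, summed UMIs per sample and class and kept the sample as a term, and calls were made with edgeR's quasi-likelihood test at a Benjamini-Hochberg adjusted p of 0.05. Of 2776 genes tested, 357 (12.9%) were higher in PP cells and 493 (17.8%) were lower, or 30.6% in all. Of the higher genes 124 and of the lower genes 392 differed the same way in every sample.

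Among transcription factors, PP cells had more Etv1, an ETS factor, and less Nkx6-1, which maintains beta cell identity. Etv1 was at 339 ± 55.1 CPM (SD, n = 7) in PP cells against 14.3 ± 7.67 CPM in beta cells (log2 fold change 4.59 ± 0.30 SE, adjusted p = 3.56e-49). Meis2 (1.38 ± 0.21) and Isl1 (0.95 ± 0.19), homeodomain factors, and Nkx2-2 (0.89 ± 0.19) were also higher in PP cells. Nkx6-1 was at 75.4 ± 33.4 CPM in PP and 343 ± 172 CPM in beta cells (-1.56 ± 0.26, adjusted p = 5.08e-08), and Insm1 (-1.32 ± 0.22) and Neurod1 (-0.60 ± 0.17), which drive endocrine differentiation, were lower as well. Of 28 islet transcription factors on the list, 12 could be tested, 5 were higher and 3 were lower, with a median log2 fold change of 0.47 beside -0.06 over all genes tested.

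Beta cell markers were lower in PP cells, while the KATP channel genes Kcnj11 and Abcc8, described below, were called higher. All 7 testable beta markers of 10 were called lower, with a median of -4.54. Slc2a2, the glucose transporter of mouse beta cells, was at 16.1 ± 21.8 CPM in PP and 549 ± 132 CPM in beta cells (-4.90 ± 0.36). G6pc2, the islet glucose-6-phosphatase, was at 131 ± 106 against 4829 ± 749 CPM (-4.71 ± 0.19). Ucn3, a peptide of mature beta cells, was at 11.9 ± 23.0 against 1329 ± 298 CPM (-5.54 ± 0.28). Pdyn, the opioid precursor prodynorphin, had 0 UMIs in all PP cells and 587 UMIs in all beta cells, so that its level was at least 27.0-fold lower in PP cells when 0 was set to 3 counts over the class. Trpm5, Emilin1, Car15 and Car10 were likewise at 0 UMIs in all PP cells, and Syndig1l (-5.31), Enho (-5.30), Fkbp1b (-5.23) and Prss53 (-5.17) followed Ucn3 among the lowest. Of 17 glycolytic and mitochondrial genes, 10 could be tested, of which 6 were lower and 4 were not called. The lower ones included Pcx for pyruvate carboxylase (-2.10 ± 0.39) and Cox6a2, a subunit of cytochrome oxidase (-4.99 ± 0.40).

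PP cells also had lower levels of genes of the endoplasmic reticulum. Of 24 chaperones and stress genes, 22 could be tested, and 16 were lower and none higher, with a median log2 fold change of -0.93. Ero1lb, the beta cell form of the oxidase that forms disulphide bonds, was at 122 ± 80.8 CPM in PP and 2550 ± 411 CPM in beta cells (-3.998 ± 0.19, adjusted p = 1.08e-95). Hspa5, the chaperone BiP, was at 1069 ± 143 against 2494 ± 527 CPM (-1.005 ± 0.13), and Manf at 632 ± 114 against 1898 ± 438 CPM (-1.39 ± 0.14). Sdf2l1, a partner of BiP, fell the furthest after Ero1lb among the 16, with -2.76 ± 0.24.

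The machinery of peptide hormones was split. Of 17 genes for prohormone processing and granins, 16 could be tested, 8 were higher and 7 lower. The 8 include Ptprn2 (0.38 ± 0.14), whose call was lost with DESeq2 and in other alternatives and whose direction turned to -0.0049 when every gene of at least 1 count was tested. Of the prohormone convertases, Pcsk2 was higher in PP cells (0.60 ± 0.14) and Pcsk1 was lower, at 47.1 ± 22.5 against 311 ± 69.3 CPM (-2.36 ± 0.30). Resp18, a secretory granule protein, was at 8138 ± 1928 against 3095 ± 503 CPM (1.61 ± 0.15), and Scg5, the chaperone of Pcsk2, was higher (1.12 ± 0.12). Chga, for chromogranin A (-1.31 ± 0.20), and Scg2, for secretogranin II (-0.77 ± 0.16), were lower. For exocytosis and excitability 17 of 26 genes could be tested, 4 were higher and 5 lower. Kcnk3, a potassium channel, was at 230 ± 105 against 3.04 ± 2.41 CPM (6.23 ± 0.43), and Kcnj11, which encodes the pore of the KATP channel, was higher (1.04 ± 0.25), as was Abcc8 for its regulatory subunit (0.38 ± 0.13), a call that was lost with DESeq2, after thinning, without the sample term and without PPTx replicate 1, 3 or 4, and whose direction turned when every gene of at least 1 count was tested. Adra2a, the receptor through which catecholamines restrain insulin release, was lower (-3.42 ± 0.46) with 5 UMIs in the PP cells.

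Immediate early genes stood higher in PP cells than in beta cells, with 5 called higher of 5 that could be tested on a list of 13. Fos was at 917 ± 680 CPM against 158 ± 128 CPM (2.78 ± 0.16), Egr1 at 648 ± 384 against 112 ± 89.5 CPM (2.81 ± 0.18) and Jun at 690 ± 352 against 111 ± 72.2 CPM (2.82 ± 0.18), each higher in 7 of 7 samples. Junb (2.46 ± 0.32) was also higher in 7 of 7 samples, and Btg2 (1.27 ± 0.18) was not higher in all. These genes answer within minutes to stimulation and to cell isolation, and the part of isolation was not tested.

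The 10 largest folds over beta cells with the same direction in every sample included those of Rcn3, Smarca1, Calb1 and Gpx3, beside Pyy, Kcnk3, Tspan8 and Etv1. Rcn3, a calcium-binding protein of the secretory pathway, was at 298 ± 85.8 against 3.06 ± 4.57 CPM (6.41 ± 0.39). Calb1, the calcium buffer calbindin, was at 472 ± 260 against 26.5 ± 8.20 CPM (4.27 ± 0.25), and Gpx3, a glutathione peroxidase, at 3729 ± 748 against 296 ± 108 CPM (3.92 ± 0.13). Epcam (1.30 ± 0.20) and Spint2 (1.06 ± 0.15), of the epithelial membrane list, were higher too. Of that list 10 of 22 could be tested, 4 were higher and 1, S100a10, was lower.

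The comparison with alpha cells asked what tells these non-beta classes apart. It rested on 3 control samples, since no PPTx sample held 5 alpha cells, and it had less depth. Of 517 genes tested, 25 were higher in PP cells (4.84%) and 25 lower (4.84%), or 9.67% in all. DESeq2 called 8 and 8, and Irx2, Slc7a2, Txnip, Pdia6 and Neurod1, which edgeR called, were not among them.

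Etv1 did not differ detectably, at 371 ± 53.1 CPM (SD, n = 3) in PP and 334 ± 134 CPM in alpha cells (0.37 ± 0.33, edgeR adjusted p = 0.553). Pax6 (0.33 ± 0.34) and Gc, for the vitamin D binding protein (0.15 ± 0.23), were not called either. Irx2, a transcription factor of alpha cells, was at 61.9 ± 88.5 against 477 ± 248 CPM (-2.64 ± 0.57, edgeR adjusted p = 0.0108). Irx1, which was not tested, had 2 UMIs in all PP cells and 65 in all alpha cells. Of the 9 factors tested, 3 were lower in PP cells, Irx2 and Neurod1 (-1.01 ± 0.28) among them, and none was higher.

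Among the other alpha markers, Ttr, the thyroid hormone carrier transthyretin, was at 5856 ± 672 CPM in PP and 77420 ± 3599 CPM in alpha cells (-3.44 ± 0.19, adjusted p = 9.95e-08). Against beta cells Ttr was called higher in PP cells, at 4750 ± 1351 against 4080 ± 620 CPM (0.41 ± 0.14, edgeR adjusted p = 0.0167), though it was higher in 4 of 7 samples. In that comparison 3 of the 4 testable alpha markers were called higher, with a median log2 fold change of 1.24. Slc7a2, an arginine transporter, was lower (-1.80 ± 0.35), and in all 4 of the 6 testable alpha markers of 9 were lower and none higher. Slc30a8, the zinc transporter of insulin granules that alpha cells also carry, was at 157 ± 151 against 986 ± 233 CPM (-2.49 ± 0.42). Pcsk2, which makes glucagon from its precursor, was at 5404 ± 410 against 10282 ± 637 CPM (-0.64 ± 0.14), so that in PP cells it lay above beta and below alpha cells.

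Higher in PP than in alpha cells were Tspan8, with 129 UMIs against 4 (6.13 ± 0.39, adjusted p = 2.13e-07), Pyy, at 255169 ± 20712 against 20366 ± 7789 CPM (4.003 ± 0.28), and the metallothioneins Mt2 (3.09 ± 0.43) and Mt1 (2.88 ± 0.33). Scg2 was higher (1.597 ± 0.20), the other way round from beta cells. Of 15 metallothionein and redox genes 10 could be tested, and Mt1, Mt2 and Txnip were higher. Of 12 testable chaperone and stress genes, Pdia6 alone was called, as higher (1.14 ± 0.32). Of 4 testable immediate early genes, Jun alone was called with edgeR, as higher (1.01 ± 0.29). Fos was not called, at 637 ± 418 CPM in PP and 972 ± 521 CPM in alpha cells (-0.38 ± 0.23).

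The genes called the same way against both classes, out of 513 tested in both, were 15 higher and 6 lower in PP cells with edgeR. With DESeq2, 6 of the 15 and 2 of the 6 were called against both, and 4 and 1 kept their calls in every alternative that gave a value. These comparisons share the PP cells of the 3 control samples. The higher genes included Tspan8, Pyy, 8430408G22Rik, Clu, Ugt2b34, Mt2, Slc16a10, Jun, H3f3b, Cd81, Rad21, Sepp1, Txnip and Chgb. Clu, the extracellular chaperone clusterin, was higher by 1.83 ± 0.15 than in beta cells and by 2.30 ± 0.36 than in alpha cells. Cd81, a tetraspanin like Tspan8, was higher by 2.82 ± 0.17 and 0.82 ± 0.22. The lower genes were Slc30a8, Slc7a8, Chga, Gars, Neurod1 and Ids. Against alpha cells DESeq2 did not call Ugt2b34, Slc16a10, Jun, H3f3b, Cd81, Rad21, Sepp1, Txnip, Chgb, Slc7a8, Gars, Neurod1 or Ids, and Sepp1 was higher in 2 of the 3 samples. The genes that kept both calls in every alternative that gave a value were Tspan8, Pyy, 8430408G22Rik and Mt2, which were higher, and Slc30a8, which was lower. Against alpha cells 8430408G22Rik and Mt2 had no value after thinning or with a minimum of 1 cell per sample, and 8430408G22Rik had none in these settings against beta cells.

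**Figure D2:**
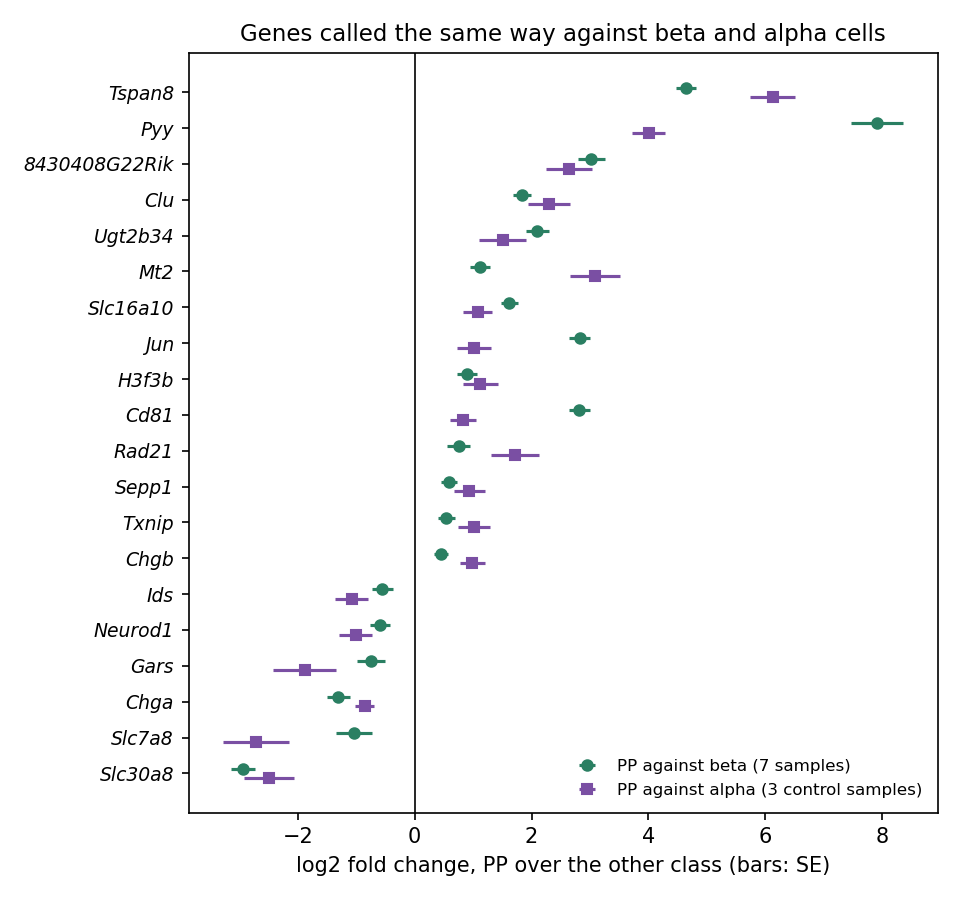
Log2 fold change of PP cells over beta cells (green circles, 7 samples) and over alpha cells (violet squares, 3 control samples) with bars of 1 standard error, for the genes named above as called higher or lower against both with edgeR, of which Tspan8, Pyy, 8430408G22Rik, Mt2, Clu, Slc30a8 and Chga were also called with DESeq2. Tspan8 and Pyy lie furthest to the right against alpha cells, at 6.13 and 4.003, and Slc30a8 furthest to the left against beta cells, at -2.94.

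Delta cells could not be compared, because 8 were found and no sample held 5. Few receptors reached a depth at which they could be tested. Of 24 peptide and incretin receptors, 3 could be tested against beta cells and 2, Adra2a and Igf1r, were lower. Glp1r, the receptor of the incretin GLP-1, had 0 UMIs in PP cells and 6 in beta cells. Gcgr, for the glucagon receptor, had 1 and 190 UMIs, which is 0.0382 times the beta level with a 95% counting interval of 0.000962 to 0.215.

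After PPTx, PP cells made up a larger part of the cells captured. The PP share of kept cells was 3.08%, 8.82%, 3.21% and 7.83% in control replicates 1 to 4 and 14.4%, 14.97%, 13.3% and 9.49% in PPTx replicates 1 to 4. Every PPTx sample lay above every control sample. The means were 5.74 ± 3.02% and 13.0 ± 2.46% (SD, n = 4 each), a difference of 7.31 points (exact permutation test, two-sided, p = 0.0286, the smallest that 4 against 4 can give). Replicate by replicate the 95% exact binomial intervals were wide, as 0.375% to 10.7% for the 2 cells of control replicate 1 and 11.1% to 19.6% for the 44 cells of PPTx replicate 2.

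The change in alpha cells went the other way. They were 7.69%, 10.8%, 24.1% and 15.7% of control and 1.6%, 1.36%, 2.96% and 0.633% of PPTx samples, again without overlap. Their mean share was 14.6 ± 7.14% against 1.64 ± 0.974% (exact permutation p = 0.0286). PP cells were thus 22.2%, 42.9%, 11.5% and 31.7% of the PP, alpha and delta cells in control and 85.7%, 89.8%, 81.8% and 93.8% in PPTx samples, a difference of 60.7 points between means of 27.1 ± 13.4% and 87.8 ± 5.15% (exact permutation p = 0.0286). PP and alpha cells together were 20.3 ± 7.07% of control and 14.7 ± 3.04% of PPTx cells, with overlapping groups (exact permutation p = 0.2). The 6 values compared in this way included the Ppy share and Pyy level of PP cells given below. Over these 6 exact permutation tests the smallest adjusted p was 0.0571, and each of the 3 that reached the smallest raw p had it. The test of the Ppy share decides nothing, since Ppy chose the cells, yet it adds to the number of tests behind this adjusted p. An adjustment without it was not run. Cells that reached both the Gcg and the Ppy limit were counted neither as alpha nor as PP cells. There were 13 of them in control, beside 87 alpha cells, and 18 in PPTx samples, beside 11 alpha cells. The limits thus left out a larger part of the Gcg-rich cells of PPTx samples, which bears on the alpha and PP shares. Shares with these cells counted were not computed. These are shares, and the numbers of PP or alpha cells per pancreas were not measured.

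**Figure D3:**
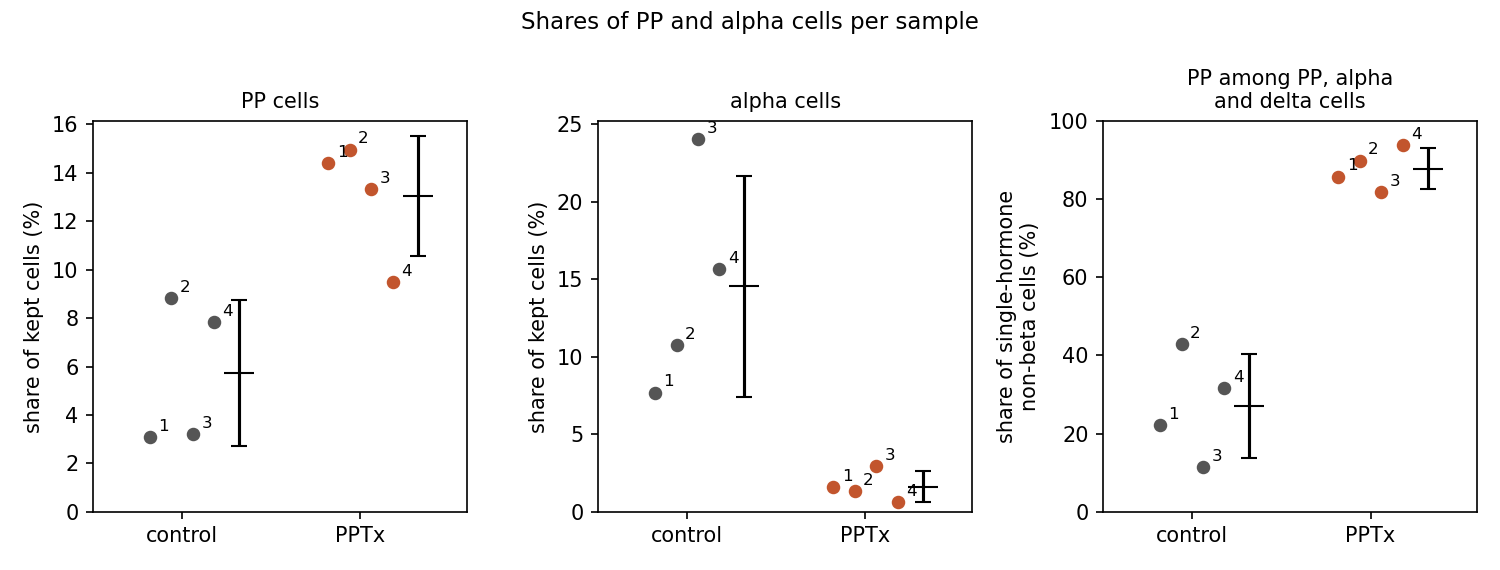
PP cells and alpha cells as a share of kept cells (left and middle panels, %) and PP cells as a share of PP, alpha and delta cells (right panel, %) in each sample, numbered by replicate, with the group mean and SD as a bar. In all 3 panels the 4 control and the 4 PPTx samples do not overlap. PP cells are above 80% of PP, alpha and delta cells in every PPTx sample.

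The hormone shares of PP cells overlapped between the groups. The mean share of Ppy per PP cell was 59.3%, 50.1%, 53.5% and 46.8% in control and 48.0%, 43.5%, 53.6% and 47.0% in PPTx samples, with means of 52.4 ± 5.34% and 48.0 ± 4.20%, given as a description since Ppy chose the cells. Pyy was at 104277, 240530, 246110 and 278868 CPM in control and 250220, 177522, 235256 and 279549 CPM in PPTx samples, with overlap as well (exact permutation p = 0.743), and the low control value came from the 2 cells of replicate 1. In PP cells Tspan8 was at 1263 to 1567 CPM in control replicates 2 to 4 and 847 to 1600 CPM in PPTx samples (log2 fold change -0.15 ± 0.25, edgeR adjusted p = 0.943).

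Replication, the process that the study followed in beta cells, was seen in 1 PP cell. With a replicating cell taken as one with at least 2 UMIs from 10 replication genes, 1 of 30 control PP cells (3.33%, 95% exact binomial interval 0.0844% to 17.2%) and 0 of 95 PPTx PP cells met this. A count of 0 allows a share of up to 3.16% when set to 3 counts, and up to 3.81% by the exact interval. Cells were pooled over the samples of a group and share libraries, so these limits cover counting error only. Among beta cells 2.72% of 368 control and 5.05% of 555 PPTx cells met it, or 1.90% and 2.52% after thinning to 2000 UMIs. The difference between PP and beta cells was not tested.

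The comparison of genes between PPTx and control PP cells used 3 control and 4 PPTx samples. Of 635 genes tested 1 was called (0.157%), which was Iapp, and 40 had an unadjusted p under 0.05. DESeq2 called 2 genes, Iapp and Chga. Amylin is a hormone that beta cells store and release with insulin. Iapp stood at 1208, 1081 and 1286 CPM in PP cells of control replicates 2 to 4 and at 3172, 19140, 15823 and 9853 CPM in PPTx replicates 1 to 4. All PPTx samples lay above all control samples, control replicate 1 with 1629 CPM included, and PPTx replicate 1 was closest to them. The means were 1191 ± 103 and 11997 ± 7027 CPM, and the log2 fold change was 3.32 ± 0.43 SE (edgeR adjusted p = 5.89e-05). The call held without any 1 of the 7 samples, with log2 fold changes from 3.04 to 3.63. In beta cells Iapp was at 112955 to 120421 CPM in control and 115618 to 125152 CPM in PPTx samples. The PPTx difference in PP cells exceeded that in beta cells by 3.02 ± 0.40 (edgeR interaction term, adjusted p = 1.08e-10), the only call among 3983 genes (0.0251%). With at least 10 cells per sample, which leaves 1 control sample, this call was lost (2.83, adjusted p = 0.19).

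The higher Iapp of PPTx samples came largely from few cells. Above 20000 CPM, a limit set after the values were seen, lay 8 PP cells of PPTx replicate 2, 3 of replicate 3, 2 of replicate 4 and none of replicate 1, so 13 of 95 PPTx cells and 0 of 30 control cells, where a count of 0, set to 3 counts, allows up to 10%. These cells were pooled over samples, so the limit covers counting error only. The nearest cells were at 23810 CPM above and 15416 CPM below the limit, and the highest control cell was at 4117 CPM. Per sample, the median PP cell had 1727, 803, 770 and 857 CPM in control and 2478, 5157, 1315 and 1616 CPM in PPTx. Without the 13 cells the sums stood at 5125, 1107 and 1748 CPM in PPTx replicates 2 to 4, and replicate 3 then lay within the control range.

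**Figure D4:**
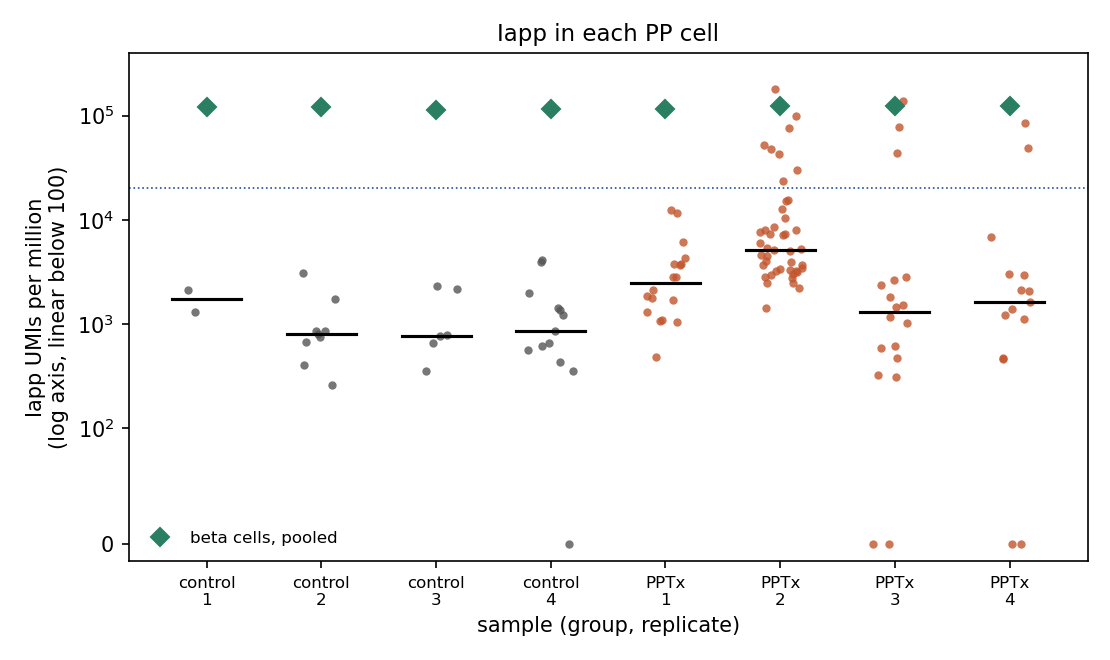
Iapp in each PP cell (CPM, on an axis that is logarithmic above 100 and linear below) by sample, in grey for control and orange for PPTx, with a black line at the median and a green diamond for the pooled beta cells of the sample. The 13 cells above the dotted line at 20000 belong to PPTx replicates 2, 3 and 4, and the highest reaches 181240.

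The Iapp-rich cells met every limit of the PP rule. They were picked for high Iapp among cells limited to low insulin, so their Iapp, their insulin share and the ratio of these are descriptions that the choice of cells bears on. Their insulin share was 0.338% to 8.46%, with a median of 2.16%, against a median of 59.7% in beta cells. They held 207 Iapp UMIs for each 100 insulin UMIs, while beta cells held 8.35 and control PP cells 9.52. In the other PP cells of the same 3 samples the figure was 15.9. Their share of Ppy had a median of 27.0% against 50.2% in those other cells, and 5 of the 6 PP cells with under 20% Ppy were among the 13. Gcg and Sst were at most 0.0521% and 0.103%. Their median depth was 2903 UMIs, against 4558.5 in the others.

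Chga was also high in the Iapp-rich cells. It was at 6106, 6105 and 4443 CPM in PP cells of control replicates 2 to 4 and at 6387, 14306, 12285 and 11949 CPM in PPTx replicates 1 to 4, without overlap among these 7 samples, but it was not called (1.03 ± 0.27, edgeR adjusted p = 0.174). In the 2 PP cells of control replicate 1, which was not in the fit, Chga was at 8961 CPM, above PPTx replicate 1. DESeq2 called it (adjusted p = 0.046), as did edgeR without PPTx replicate 1 (1.22, adjusted p = 0.00117). In the 13 cells Chga ran from 23481 to 122368 CPM, and no other PP cell exceeded 18182 CPM. Genes picked after their values were seen give the rest of the picture of these cells, as pooled levels in the 13 cells against the others of the same samples. Mlxipl, the glucose-responsive factor ChREBP, was at 910 against 102 CPM, Ppp1r1a, an inhibitor of protein phosphatase, at 502 against 57.4 CPM, and Hadh, a mitochondrial dehydrogenase, at 721 against 153 CPM. Igfbp7, a secreted protein that binds insulin-like growth factors, was at 1443 against 255 CPM. Of the PP markers, Pyy was at 106085 against 225198 CPM, with a median share of 5.50% against 9.25%, and Tspan8 was at 972 against 1289 CPM. Of the beta cell genes, Ucn3 was at 94.1 against 25.5 CPM (3 and 4 UMIs), G6pc2 at 345 against 249 CPM and Nkx6-1 at 125 against 76.6 CPM (4 and 12 UMIs), and Slc2a2 had 0 and 3 UMIs. In beta cells Ucn3 stood at 1309 CPM, G6pc2 at 4918 CPM and Nkx6-1 at 316 CPM.

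Of the genes that were not called, Lpl, for lipoprotein lipase, was next after Iapp by its p, at 555, 702 and 519 CPM in control replicates 2 to 4 and 245, 259, 239 and 357 CPM in PPTx samples (-1.14 ± 0.29, edgeR adjusted p = 0.174). It was at 0 CPM in the 2 cells of control replicate 1. The groups in the fit did not overlap, as for 48 of the 635 genes (7.56%). Srsf5, a splicing factor (1.14 ± 0.38), Arpc2 of the actin nucleating complex (1.10 ± 0.39) and 1700086L19Rik (0.87 ± 0.32) had the lowest p among higher genes after Iapp and Chga, and Mt2 (-1.08 ± 0.37), Itm2c (-0.66 ± 0.24), 8430408G22Rik (-1.02 ± 0.39) and Mrfap1 (-0.74 ± 0.30) among lower ones after Lpl, each with an adjusted p of 0.739. No list held a called gene other than Iapp. The 14 testable chaperone and stress genes had a median log2 fold change of -0.11, the 7 transcription factors 0.24 and the 6 immediate early genes 0.55, beside 0.01 over all genes tested.

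Iapp, Pyy and Chga had the highest ratio of variance to mean among PP cells. This ratio can rise with a gene's level, and Pyy had a mean of 211 UMIs per thinned cell against 1.35 for Fos. The highest PPTx cells reached 181240 CPM of Iapp and 122368 CPM of Chga, against 4117 and 18182 CPM in control. In cells thinned to 2000 UMIs, the variance of Iapp was 71.0 times its mean within samples, that of Pyy 44.3 times and that of Chga 40.5 times, where the median of 1593 genes was 1.04. Ttr followed with 5.58, then Fos (2.70), Spp1 for osteopontin (2.53), Igfbp7 (2.52), Resp18 (2.48), Scg2 (2.36) and Gnas, the stimulatory G protein (2.23). Spp1 had a UMI in 18.4% of thinned PP cells and was at 458 CPM in PP, 64.2 CPM in beta and 98.0 CPM in alpha cells.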

How the data were processed

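Islet cells were profiled in droplets in 4 control and 4 PPTx samples. The labels name a Chromium kit, while the study's methods name a ddSEQ kit. The authors aligned reads to mm10 with Cell Ranger, after bcl2fastq, and deposited UMI counts per gene symbol and cell, 24421 genes by 1240 cells, without normalization. Samples held 236645 to 1580152 UMIs, and intervals cover counting error only.

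A filter of 100 to 3000 genes and 100 to 20000 UMIs per cell left out 8 cells, and the rest were placed in classes by hormone shares (beta: Ins1 and Ins2 at least 20%; alpha and delta: Gcg or Sst at least 5%; the other hormones below their limits). The members and lists were chosen with earlier results of these data known. Counts were summed per sample and class without Ins1, Ins2, Gcg, Sst and Ppy, for samples with at least 5 cells, and CPM were computed from these sums. The quasi-likelihood test of edgeR 4.0.16 was run after filterByExpr and TMM scaling, with the sample as a term between classes and Benjamini-Hochberg adjustment at 0.05, and DESeq2 1.42.0 served as an alternative. The edgeR fit was tested on simulated data. Standard errors are the log2 fold change over the root of F. Shares were compared by exact permutation (scipy 1.17.1). Named genes were up to 10 called each way per comparison with the same direction in every sample, those called against both classes, the 5 lowest p each way for PPTx, PP markers, called or abundant list members, and the 10 with the highest variance to mean ratio. Some genes that met the rule are not reported here. Other genes are named as chosen after the values were seen. Alternatives changed the gate, filter, normalization, depth, cell minimum and samples. Promoters came from a RefSeq table, without coordinates of other builds.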

Additional observations from a re-analysis of the deposited data

Results flagged for a closer look

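PPTx replicate 2 gave 44 PP cells, against 15 to 18 in the other PPTx samples, and it was also the largest of them with 294 kept cells, with a PP share of 14.97%, against 14.4%, 13.3% and 9.49% in replicates 1, 3 and 4. PP and alpha cells together made up 10.1% of PPTx replicate 4, the sample with the fewest UMIs per PP cell among the PPTx samples, against 16% to 16.3% in the others. In control replicate 1 the median PP cell had 816.5 genes, from 2 cells, against 1477 to 1579 in the other controls. The highest insulin share of a PP cell in control replicate 4 was 2.62%, against 0.597% to 0.880% in the other controls. Each of these 4 values, out of 36 groups of 4 looked at, stood far from the rest of its group, as chance makes about 1 in 20 groups do. The PPTx difference of Iapp in PP cells exceeded that in beta cells by 3.02 on the log2 scale, by a test of the difference itself, and PPTx replicate 2 with its 8 Iapp-rich cells did not decide it, since it was 2.72 without that sample.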

How the results depend on the processing

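Between PP and beta cells, 850 genes were called, and 1475 with every gene of at least 1 count, 275 with cells thinned to 2000 UMIs, and 635 to 847 with each sample left out. Ptprn2 and Abcc8, called slightly higher in PP cells, reversed with every gene of at least 1 count, to -0.0049 and -0.000540, where the cause was not tested. Of 109 results on named genes in this comparison 81 kept their direction and call in every alternative that gave a value. Between PP and alpha cells, 50 genes were called, and 16 with DESeq2, 24 with every gene of at least 1 count, 9 after thinning (118 genes tested), and 29 to 48 with each sample left out, 29 without control replicate 4. Only 10 of 37 named results kept their call in every alternative that gave a value. Between PPTx and control PP cells the 1 call became 2 with DESeq2 or with every gene of at least 1 count, 4 with at least 10 cells per sample, where control replicate 4 is the lone control sample and is assumed to vary like the PPTx samples, and 1 to 2 with each sample left out. For the difference in PPTx response between PP and beta cells, the 1 call became 6 with RLE normalization, 3 with every gene of at least 1 count, 2 with the hormone genes kept, and 1 to 4 with each sample left out. A minimum of 1 cell per sample was added after the data were seen and gave 659, 43, 1 and 1 calls in the 4 comparisons. With each sample left out the PP share of kept cells differed by 6.43 to 8.50 points. The PP share of PP, alpha and delta cells differed by 55.5 to 65.9 points. The exact permutation p was 0.0571, the smallest possible. UMIs per PP cell against beta cells differed by -0.12 to -0.068 on the log10 scale with each sample left out, past the threshold without control replicate 2 (-0.12), and by 0.017 outside the hormone genes. The replicate block gave 4 calls between PPTx and control PP cells (Iapp and Chga higher, Mt2 and 8430408G22Rik lower), and differences of 7.31 and 60.7 points in the 2 shares, each with a p of 0.125, the smallest that 4 pairs allow. Samples with the same number correlated at 0.029, 0.036 and 0.073, and those with different numbers at -0.12 to 0.13. These few correlations cannot decide whether equal numbers pair the samples, and the labels give no shared animal, litter or day. No comparison with delta cells, and none with alpha cells at 10 cells per sample, could be fitted. Depth limits the receptors, Vsig1, the replication genes and the detection of Aqp3 at a low level.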

Other observations

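Cells with Ppy and a second hormone were not counted as PP cells, and their numbers stand as values without a test. Of the 31 cells that reached the limits for both Ppy and Gcg, 13 came from control and 18 from PPTx samples. The 14 cells with Ppy and insulin were 2 in control and 12 in PPTx samples, and the 11 with Ppy and Sst were 8 and 3. The control PP cell nearest to the Ppy limit, with 5.38% Ppy, had the lowest Pyy share of all PP cells, at 0.426%, and did not belong to the Iapp-rich cells.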
